A study of Citrus sinensis with 6 samples.

Results

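Of the 31688 genes listed in the transcript tables of orange albedo, 4 carry the symbols of stress-protection proteins: DHN, LEA5, TIL and HSP90. They were chosen by gene name, and their values in each library are the sum of FPKM (fragment density, scaled by transcript length and by the mapped fragments of the library) over the transcripts with that name, of which there are 5. RNA came from the excised albedo, the white inner layer of the peel, of sweet orange (Citrus sinensis (L.) Osbeck) 3 days after inoculation. For 3 libraries, called the SA libraries, the fruit had received the yeast R. mucilaginosa plus 0.2 mM salicylic acid. For 3 others, called the yeast-only libraries, it had received R. mucilaginosa alone (yeast alone in the plots), so both groups carry the yeast. R. mucilaginosa (Rhodotorula mucilaginosa) is an antagonist of fruit pathogens, and salicylic acid is a hormone of plant defence. The labels do not name the inoculum or say whether libraries came from separate fruit, so p-values measure the spread between these libraries, which may be technical. Untreated fruit was not analysed here.

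Dehydrins and other late embryogenesis abundant (LEA) proteins are hydrophilic or partly hydrophobic proteins that accumulate in seeds and in tissues under drought, cold or salt, where they protect membranes and enzymes. Many of their genes respond to abscisic acid. Temperature-induced lipocalins are membrane-associated carriers of small lipophilic molecules that limit lipid peroxidation under heat and other stresses, as shown in Arabidopsis. HSP90 is an ATP-dependent chaperone of signalling proteins, and in Arabidopsis and tobacco relatives it acts with co-chaperones in keeping disease resistance receptors stable.

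Depth was 4.78 to 5.24 gigabases in the SA libraries and 4.11 to 4.87 gigabases in the yeast-only libraries. Replicate 1 of the yeast-only group was the shallowest. Nuclear green tissue genes, as a check on outer peel in the excised tissue, were 4 symbols (CHLASE1, PSADA, PSADB and PSAE), of which 3 passed the filter on low values. Their summed level was 17.3 to 25.2 FPKM in SA libraries and 24.6 to 29.6 FPKM in yeast-only libraries. Most of that sum was CHLASE1, at 12.4 to 16.7 FPKM in SA libraries and 18.8 to 21.1 FPKM in yeast-only libraries. PSAE had 3.41 to 5.97 FPKM in SA libraries and 2.67 to 7.38 FPKM in yeast-only libraries. PSADB had 1.01 to 2.30 FPKM and 0.632 to 2.98 FPKM, in the same order of groups, so both overlapped. The chloroplast genome, the other green list, had 115 genes, of which 40 were tested (18 higher and 22 lower by sign). Of these, 0 passed an adjusted p of 0.05 in limma, against 0.00576% of all tested genes, and 2 had an unadjusted p under 0.05, against 5.23%. In 2 of the 40 the groups did not overlap, with higher values in SA libraries, against 5.68% of all tested genes. It held 0.0301% to 0.0992% of covered bases in SA libraries and 0.0487% to 0.109% in yeast-only libraries. No symbol in the files was taken as defining for albedo itself.

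LEA5 was the most abundant of the 4 genes in every library. It stood at 4277, 3653 and 3646 FPKM in SA libraries 1 to 3, and at 6521, 3247 and 3685 FPKM in yeast-only libraries 1 to 3. By FPKM it was among the 3 highest of all 31688 genes in each library, and first in replicate 1 of the yeast-only group. On the mean over the 6 libraries its rank was 2. Its share of all FPKM was 0.583%, 0.544% and 0.524% in SA libraries and 0.906%, 0.469% and 0.509% in yeast-only libraries.

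TIL stood at 733, 616 and 693 FPKM in SA libraries 1 to 3, and at 1198, 459 and 679 FPKM in yeast-only libraries 1 to 3. The SA libraries lay inside the range of the others, which held both the highest and the lowest value. Its rank ran from 44 to 228, with both ends among the yeast-only libraries, and was 101 on the mean.

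DHN stood at 537, 451 and 501 FPKM in SA libraries 1 to 3, and at 713, 561 and 606 FPKM in yeast-only libraries 1 to 3. Each SA library was below each yeast-only library. Its rank was 207 to 218 in SA libraries and 114 to 165 in yeast-only libraries, and 172 on the mean.

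HSP90 stood at 457, 549.7 and 539 FPKM in SA libraries 1 to 3, and at 407, 560.5 and 448 FPKM in yeast-only libraries. The groups overlapped, and both the lowest and the highest library were yeast-only ones. Its rank was 155 to 261 in SA libraries and 165 to 286 in yeast-only libraries, and 217 on the mean.

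**Figure D1:**
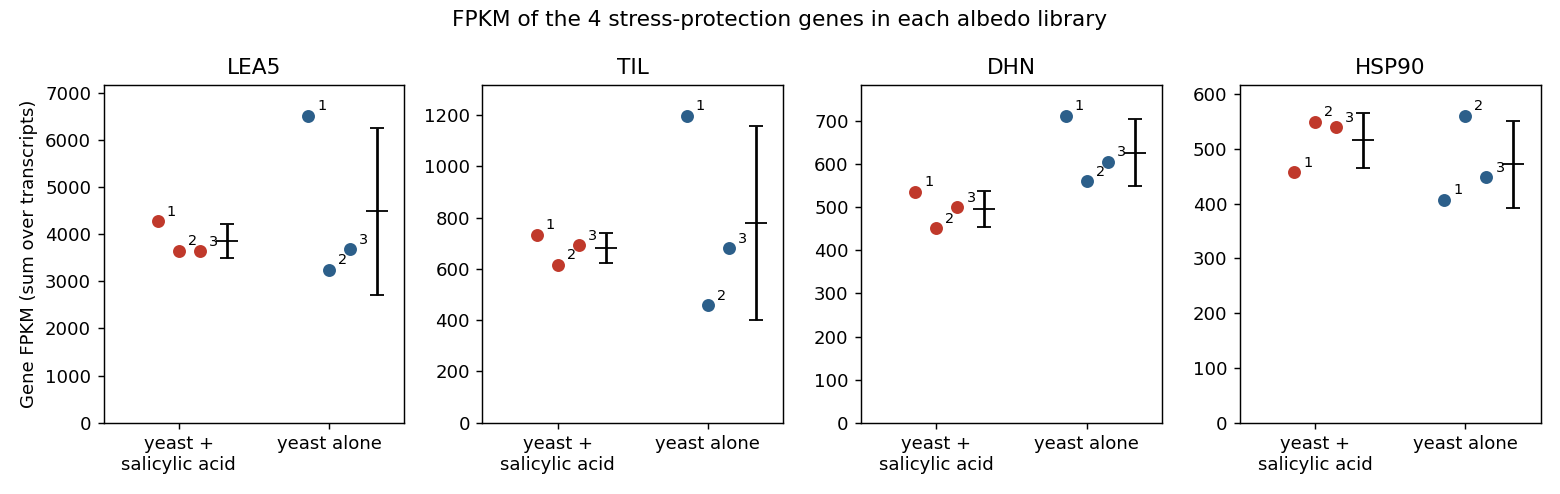
Gene FPKM (vertical axis, from 0, a scale per gene) of LEA5, TIL, DHN and HSP90 in each library, with the replicate number beside each point; bars are the mean and SD of 3 libraries. DHN has no overlap between the groups, with 451 to 537 FPKM in SA libraries and 561 to 713 FPKM in yeast-only libraries.

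**Figure D2:**
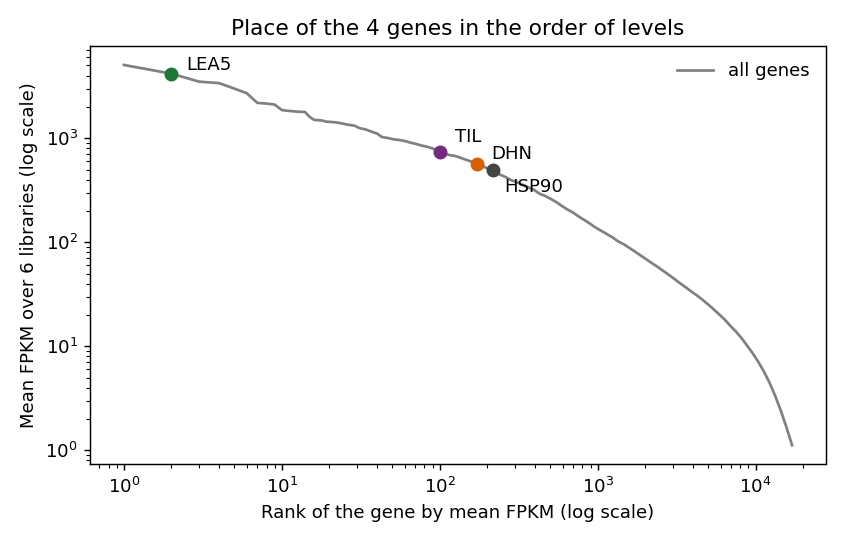
Mean FPKM over the 6 libraries against the rank of a gene by that mean, both on log scales; the grey line is genes with a mean of at least 1 FPKM and the points are the 4 genes. LEA5 sits at rank 2, and TIL, DHN and HSP90 at ranks 101, 172 and 217.

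Per length, LEA5 was several times above the others in every library. TIL over HSP90 ranged from 1.12 to 1.60 in SA libraries and from 0.819 to 2.95 in yeast-only libraries. The FPKM of LEA5 over that of TIL was 5.26 to 5.93 in SA libraries and 5.42 to 7.08 in yeast-only libraries. In SA libraries, TIL (616 to 733 FPKM) lay above HSP90 (457 to 549.7 FPKM) and DHN (451 to 537 FPKM) without overlap, whereas HSP90 and DHN overlapped. In yeast-only libraries, TIL overlapped both DHN and HSP90, and DHN (560.9 to 713 FPKM) lay above HSP90 (407 to 560.5 FPKM) by less than 1 FPKM at their edges.

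DHN, LEA5, TIL and HSP90 were then compared between the SA and the yeast-only libraries, that is, with and without the hormone added to the yeast. No fruit with salicylic acid alone was analysed here. An effect of the hormone on the fruit and an effect through the yeast therefore cannot be told apart. Of the 4 genes, 0 passed an adjusted p of 0.05 in limma, against 0.00576% of the 17355 genes tested. At an unadjusted p under 0.05 there were also 0 of the 4, against 5.23% of all genes (2.18% lower in SA libraries). Their log2 differences had a negative sign in 3 genes and a positive one in 1, with a median of -0.12, beside 0.02 over all genes, of which 45.8% were lower. The differences that follow are on the log2(FPKM + 1) scale. In bulk tissue, fewer cells that express a gene and less RNA per cell cannot be told apart.

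The dehydrin gene DHN averaged 496 ± 42.8 FPKM in SA libraries and 627 ± 78.2 FPKM in yeast-only libraries (SD, n = 3 each), a ratio of 0.792. On the log2 scale the difference was -0.33 (SE 0.15, 95% interval -0.68 to 0.01; unadjusted p = 0.0557, adjusted p = 0.960 in limma). It was the 1 gene of the 4 whose groups did not overlap, and 4.56% of all tested genes were likewise lower in SA libraries without overlap. In the higher direction, 0 of the 4 did not overlap, against 5.68% of tested genes, and 10.2% did not overlap in either direction. An exact two-sided permutation test of the 3 libraries against 3 gave p = 0.10, the smallest that this design allows. The difference was -0.24 to -0.41 with any 1 library left out. Its unadjusted p in limma was under 0.05 in 5 of 17 alternatives, at 0.0274 to 0.0494. In the other alternatives this limma p was 0.0502 to 0.154, the highest without replicate 2 of the SA group. Of those under 0.05, 1 took the deposited gene values, which for DHN are the FPKM times a constant. CHLASE1, of the green tissue list, encodes chlorophyllase. It had 16.7, 15.0 and 12.4 FPKM in SA libraries 1 to 3 and 18.8, 20.9 and 21.1 FPKM in yeast-only libraries, so it also did not overlap. The other tested genes of that list did overlap, PSADB with a log2 difference of 0.22 and PSAE with -0.05. Of the 40 chloroplast genes tested, 18 were higher and 22 lower in SA libraries. The part of green tissue in the DHN values was not tested.

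LEA5 averaged 3859 ± 363 FPKM in SA libraries and 4484 ± 1777 FPKM in yeast-only libraries (SD, n = 3 each). The log2 difference was -0.15 (SE 0.28, 95% interval -0.78 to 0.48) and did not pass (adjusted p = 0.988 in limma). The order of the means rested on replicate 1 of the yeast-only group. Without it the mean of that group was 3466 FPKM and the log2 difference was 0.15.

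TIL averaged 681 ± 59.2 FPKM in SA libraries and 779 ± 379 FPKM in yeast-only libraries (SD, n = 3 each). The log2 difference of -0.09 (SE 0.30, 95% interval -0.77 to 0.60) did not pass, with an adjusted p of 0.996 in limma. As for LEA5, the sign rested on replicate 1 of the yeast-only group, without which that group averaged 569 FPKM and the difference was 0.28.

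The chaperone gene HSP90 averaged 515 ± 50.6 FPKM in SA libraries and 472 ± 79.6 FPKM in yeast-only libraries (SD, n = 3 each). Its log2 difference was 0.14 (SE 0.16, 95% interval -0.24 to 0.51; adjusted p = 0.978 in limma), and 0.04 to 0.27 with any 1 library left out. The intervals of all 4 genes lay within 1 of 0 on the log2 scale.

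**Figure D3:**
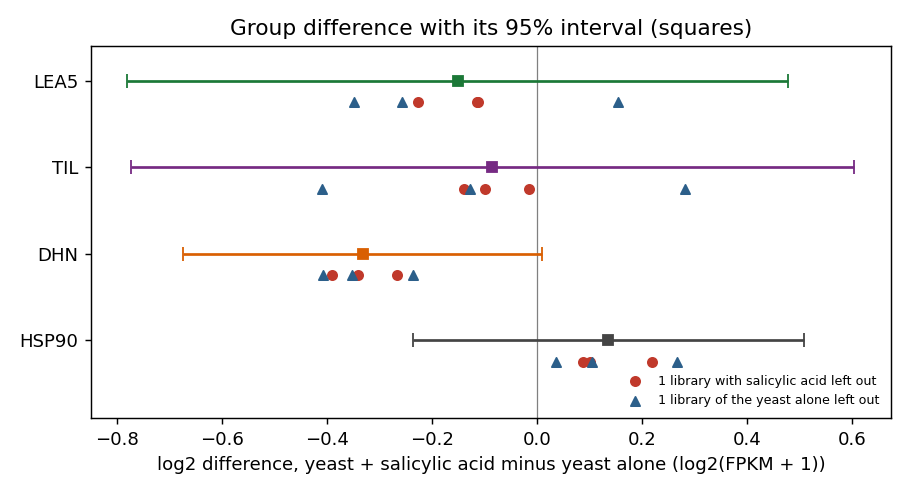
Difference in log2(FPKM + 1), SA minus yeast-only libraries (horizontal axis), for LEA5, TIL, DHN and HSP90: squares with bars are the limma value and its 95% interval, and the small symbols under each are values with 1 library left out. For LEA5 and TIL, 1 blue triangle lies above 0, at 0.15 and 0.28, the values without replicate 1 of the yeast-only group.

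The transcripts behind these totals were described one by one. DHN, TIL and HSP90 have a single transcript each, so their gene and transcript values are the same. DHN is the transcript XM_006473689.2, with 2 exons and 1568 bases, on NC_023048.1 from 28084197 to 28085897, minus strand. TIL is NM_001289143.1, with 2 exons and 561 bases, on NC_023049.1 from 462874 to 463731, minus strand. HSP90 is NM_001288915.1, with 3 exons and 2103 bases, on NC_023049.1 from 5397257 to 5399944, plus strand. TIL and HSP90 thus share that sequence. No source used here names the genome build.

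LEA5 has an annotated and an assembled transcript. The annotated one, NM_001289140.1, has 2 exons and 591 bases on NC_023054.1 from 2313190 to 2314584, minus strand. The other, MSTRG.17231.1, is a single exon of 2079 bases from 2310005 to 2312083 on the same strand. It lies 1106 bases downstream of the annotated transcript, does not overlap it, and bears a separate assembled gene identifier, so only the gene name ties it to LEA5.

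MSTRG.17231.1 stood at 8.24, 11.0 and 6.53 FPKM in SA libraries 1 to 3, and at 14.8, 13.9 and 6.02 FPKM in yeast-only libraries. It thereby held 0.179% to 0.301% of the LEA5 total in SA libraries and 0.163% to 0.428% in yeast-only libraries. The difference in that share, -0.0486 percentage points, had p = 0.70 in an exact two-sided permutation test over libraries (smallest possible p 0.10). Its mean per-base coverage was 27.7 to 67.8, whereas that of the annotated transcript was 15758 to 26768.

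Tested one by one, 0 of the 5 transcripts passed an adjusted p of 0.05 in limma, against 0.0338% of 26605 transcripts. The transcript of DHN had an unadjusted p of 0.0434 there (adjusted p = 0.928 in limma), and 5.18% of all transcripts had one under 0.05. Its values are those of the gene, and the fit over transcripts differs from that over genes in the spread it borrows from other features. MSTRG.17231.1 had a log2 difference of -0.33 (SE 0.36, adjusted p = 0.946 in limma), and its groups overlapped. Coverage of the DHN, TIL and HSP90 transcripts was 1674 to 4929 per base in the 6 libraries.

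The spread between libraries differed among DHN, LEA5, TIL and HSP90. The highest library over the lowest was 2.61 for TIL, 2.01 for LEA5, 1.58 for DHN and 1.38 for HSP90. Within-group SDs of log2(FPKM + 1) were 0.50 for TIL and 0.39 for LEA5, above those of 93.5% and 86.5% of all tested genes, and of 95.6% and 90.7% of the 1380 genes with a mean of at least 100 FPKM. Those of DHN and HSP90 were 0.15 and 0.20, above 24.8% and 42.3% of tested genes, and above 32.8% and 52.9% of the same 1380 genes. Most of the spread of TIL and LEA5 was among yeast-only libraries. The highest over the lowest library of TIL was 1.19 in SA libraries and 2.61 in yeast-only libraries, and that of LEA5 was 1.17 in SA libraries and 2.01 in yeast-only libraries. This difference in spread was not tested.

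Replicate 1 of the yeast-only group gave LEA5, TIL and DHN their highest values and HSP90 its lowest. Against the median of the other 5 libraries its level was 1.79 times for LEA5, 1.76 times for TIL, 1.33 times for DHN and 0.754 times for HSP90. The same library stood at or above 1.5 times the median of the others in 86 of the 1380 genes with a mean of at least 100 FPKM, or 6.23%, against 1.45% to 2.83% for each of the other 5 libraries. It was also the library of lowest depth, at 4.11 gigabases, and the part of depth in these values was not tested.

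Replicate 2 of the yeast-only group held the lowest LEA5 and TIL and the highest HSP90. In units of log2(FPKM + 1), it deviated from the mean of each gene by -0.61 for TIL, -0.32 for LEA5, 0.01 for DHN and 0.19 for HSP90. In replicate 1 of the yeast-only group these deviations were 0.78 for TIL, 0.69 for LEA5, 0.36 for DHN and -0.27 for HSP90.

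**Figure D4:**
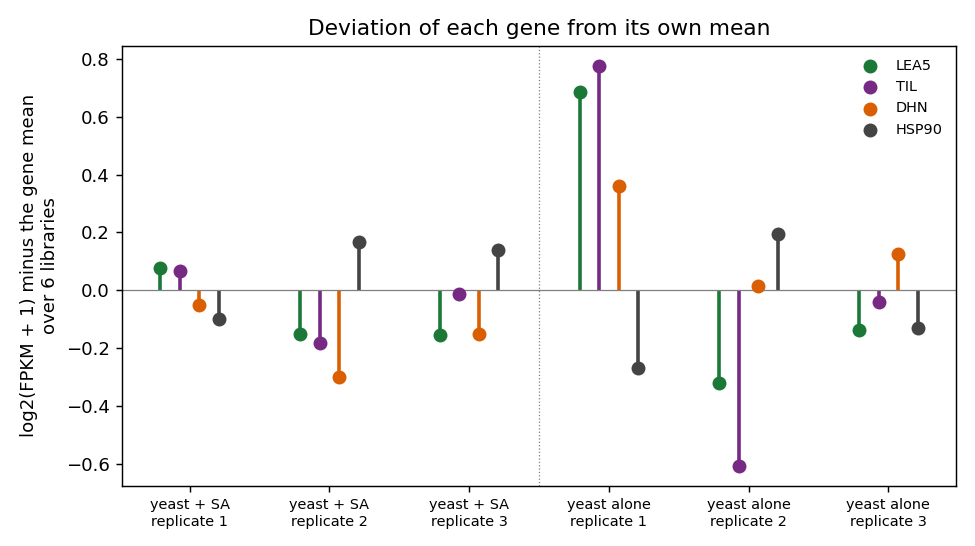
Deviation of log2(FPKM + 1) from the mean of each gene over the 6 libraries (vertical axis), for LEA5, TIL, DHN and HSP90 in each library. In replicate 1 of the yeast-only group LEA5, TIL and DHN deviate upwards, by 0.69, 0.78 and 0.36, and HSP90 deviates by -0.27.

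Correlations between DHN, LEA5, TIL and HSP90 over the 6 libraries were computed for all 6 pairs, with exact two-sided permutation p-values over the 720 pairings, adjusted over the 6 pairs. LEA5 and TIL had the highest, with Pearson r = 0.95 (exact permutation p = 0.00556, adjusted 0.0250) and Spearman rho = 0.83 (p = 0.0583, adjusted 0.117). HSP90 ran the other way from both. Its r was -0.82 with LEA5 (exact permutation p = 0.0139, adjusted 0.0278) and -0.84 with TIL (exact permutation p = 0.00833, adjusted 0.0250). Spearman rho of HSP90 was -0.89 with LEA5 (exact permutation p = 0.0333, adjusted 0.117) and -0.83 with TIL (exact permutation p = 0.0583, adjusted 0.117).

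DHN had r = 0.71 with LEA5 (exact permutation p = 0.119, adjusted 0.143), 0.62 with TIL (exact permutation p = 0.161, adjusted 0.161) and -0.81 with HSP90 (exact permutation p = 0.0486, adjusted 0.0729). Its rho was 0.49 with LEA5 (p = 0.356, adjusted 0.427), 0.37 with TIL (p = 0.497, adjusted 0.497) and -0.66 with HSP90 (p = 0.175, adjusted 0.263), from the same exact permutation test. Thus 3 of the 6 pairs passed by r and 0 by rho. With LEA5, 0.645% of all tested genes had a higher r than TIL, and 4.03% had a lower r than HSP90. With TIL, 2.89% of tested genes had a lower r than HSP90. The share of pairs of other genes that would pass was not computed.

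The same r was computed with libraries left out. Without the 2 libraries farthest from the median of LEA5, replicate 1 of each group, r of LEA5 and TIL was 0.96 over 4 libraries (exact permutation p = 0.167, adjusted 0.813). The same step gave -0.52 for LEA5 and HSP90. For TIL and HSP90 it left out yeast-only replicates 1 and 2 and gave -0.63. Over these 4 libraries the exact permutation p was 0.333 for LEA5 and HSP90 and 0.50 for TIL and HSP90, where the smallest possible is 0.0417. With the libraries farthest in DHN left out it gave -0.19 for DHN with LEA5, -0.22 with TIL and -0.49 with HSP90. Without replicate 1 of the yeast-only group, r was 0.85 for LEA5 and TIL (adjusted exact permutation p = 0.317), and for DHN it was -0.07 with LEA5 and -0.09 with TIL. With FPKM rescaled to the same sum in each library, 0 of the 6 pairs passed, and LEA5 and TIL had r = 0.94 with an adjusted exact permutation p of 0.0583.

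With the group means removed, which takes out the lower DHN of the SA libraries, r within groups was 0.96 for LEA5 and TIL, 0.90 for DHN and TIL and 0.89 for DHN and LEA5. For HSP90 it was -0.82 with LEA5, -0.87 with TIL and -0.89 with DHN. Pairings were then permuted within groups only, 36 in all, and adjusted exact permutation p-values were 0.10 for 5 pairs and 0.167 for LEA5 and HSP90. The smallest unadjusted p possible in this permutation test is 0.0278, the value of DHN and TIL.

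Ratios of 2 of the genes within a library do not change with any scaling of that library. TIL over DHN was 1.37, 1.37 and 1.38 in SA libraries 1 to 3, and 1.68, 0.818 and 1.12 in yeast-only libraries. The SA libraries were near each other and inside the range of the others. DHN over HSP90 was 1.17, 0.821 and 0.928 in SA libraries, and 1.75, 1.001 and 1.35 in yeast-only libraries, so the groups overlapped. Over the 6 pairs, the smallest exact permutation p for a group difference in the log2 ratio was 0.20, for DHN over HSP90, with an adjusted p of 0.80.

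Likeness was set against all tested genes. By r with LEA5 over the 6 libraries, TIL stood at place 113 of 17354 genes, so 0.645% of genes had a higher r. DHN had a higher r with LEA5 than 90.2% of genes, and HSP90 had a lower r than 95.96% of genes.

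**Figure D5:**
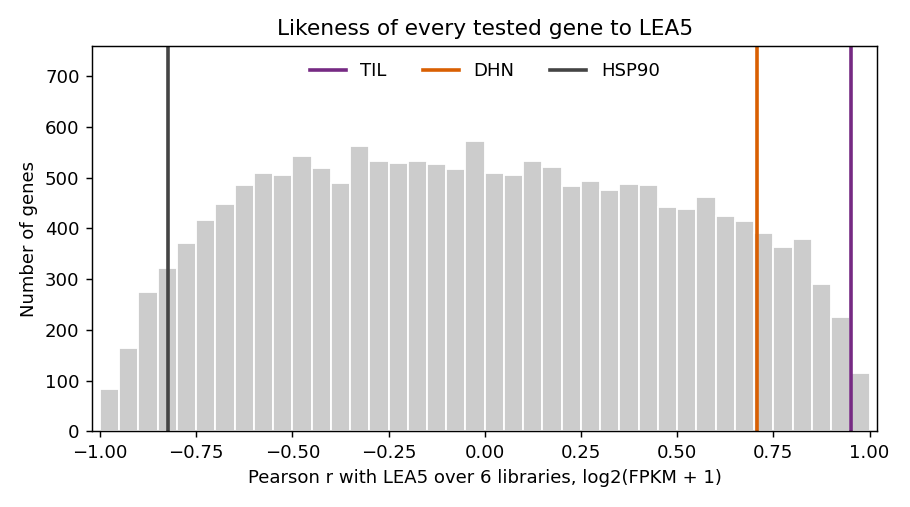
Number of genes (vertical axis) by Pearson r of log2(FPKM + 1) with LEA5 over 6 libraries (horizontal axis), for all 17354 other tested genes; lines mark TIL, DHN and HSP90. TIL is at 0.95 near the right edge, where 0.645% of genes have a higher r, DHN at 0.71 and HSP90 at -0.82.

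Among the 104 other tested genes with a symbol, those of highest r over the 6 libraries were taken for each gene, as a description. Since r was taken over these same libraries, shared highs, lows and group patterns largely follow from that choice. For LEA5 they were TIL (0.95), AP1 (0.95) and the chloroplast gene psbI (0.92), whose product is a small photosystem II subunit. For TIL they were psbI (0.97), LEA5 (0.95) and AP1 (0.93). Among all 17354 other tested genes the places were 113, 134 and 260 for LEA5, and 60, 118 and 189 for TIL. AP1 stood at 6.67, 6.53 and 6.92 FPKM in SA libraries 1 to 3 and 10.3, 6.15 and 7.11 FPKM in yeast-only libraries, and psbI between 1.48 and 4.22 FPKM in the 6 libraries, both highest in replicate 1 of the yeast-only group.

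For DHN the genes of highest r among those with a symbol were CYP707A3 (0.88), EREBP (0.83), of the ethylene-responsive element binding proteins, and HMG (0.81). CYP707A3 encodes an abscisic acid 8'-hydroxylase that breaks the hormone down. Among all 17354 other tested genes they stood at places 265, 554 and 618. CYP707A3 stood at 1.37, 1.30 and 1.12 FPKM in SA libraries 1 to 3 and 1.96, 1.59 and 1.53 FPKM in yeast-only libraries, a low level with no overlap between the groups, as in DHN. The more abundant CYP707A1, of the same gene family, had a difference of the other sign, given below. For HSP90 they were CAD (0.89) and C4H1 (0.85), whose products act in the phenylpropanoid pathway, and the chloroplast gene rpoA (0.89), a subunit of its RNA polymerase. Among all 17354 other tested genes, CAD, C4H1 and rpoA stood at places 488, 893 and 530. CAD stood at 106, 134 and 113 FPKM in SA libraries 1 to 3 and 96.3, 142 and 109 FPKM in yeast-only libraries, in the same order within each group as HSP90.

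Abscisic acid genes were counted as the pathway to which dehydrin and LEA genes often respond. Of 17 symbols sought, 9 were in the files and 8 were tested. By sign 5 were higher and 3 lower in SA libraries, with a median log2 difference of 0.12, beside 0.02 over all genes. In limma 0 of the 8 had an adjusted p under 0.05, against 0.00576% of all genes, and 0 an unadjusted p under 0.05, against 5.23%. In 1 of the 8, CYP707A3, the groups did not overlap, with lower values in SA libraries, against 4.56% of all genes. CYP707A1 stood at 33.1, 43.2 and 29.6 FPKM in SA libraries 1 to 3 and 21.9, 31.8 and 24.8 FPKM in yeast-only libraries. The groups of CYP707A1 overlapped, and its log2 difference was 0.42 (unadjusted p = 0.0513 in limma). That of CYP707A4, whose groups also overlapped, was -0.25. NCED, whose enzyme cleaves a carotenoid to start abscisic acid synthesis, stood at 22.8, 42.1 and 16.9 FPKM in SA libraries 1 to 3 and 21.1, 17.1 and 10.7 FPKM in yeast-only libraries. Its groups overlapped.

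A list of chaperone, antioxidant, LEA and dehydrin symbols had 4 genes in the files, of which 3 were DHN, LEA5 and HSP90 themselves. The other was GSTU1, a glutathione transferase gene, at 272, 201 and 225 FPKM in SA libraries 1 to 3 and 190, 235 and 292 FPKM in yeast-only libraries 1 to 3. Its groups overlapped, and its log2 difference of -0.03 did not pass (adjusted p = 0.998 in limma).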

How the data were processed

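The 4 genes and the lists were chosen with earlier results of these data known. An Illumina HiSeq instrument produced the reads, per the labels' protocols. The aligner, assembler and genome build are not given in these sources. The authors deposited 1 table of transcripts for each library, not pooled, with FPKM and mean per-base coverage (a signal); the coverage over the FPKM gave depth in gigabases. The deposited gene table, whose values are a score here, served as an alternative only.

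Transcript FPKM was summed by gene name. The main comparison used limma 3.58.1 (R 4.3.3, tables read by the package data.table, version 1.17.8) on log2(FPKM + 1), two-sided, with a mean-variance trend, for features with a mean of at least 1 FPKM, and Benjamini-Hochberg adjustment at 0.05. This scale understates the change of low genes. Without read numbers no counting interval was computed. Single values and correlations had exact permutation tests in Python 3.11.15 (numpy 2.4.6), and figures used matplotlib 3.10.9. The limma step was tested on simulated data, with planted changes all larger than the differences seen in the 4 genes. It therefore does not tell whether changes as small as theirs would be found. By rule, the 3 symbols of highest r with each gene were named, as were list members that passed or were among the 3 highest of the chaperone and antioxidant list. NCED, CYP707A1, CYP707A4, GSTU1, the green genes and the neighbouring genes were singled out after their values were seen. Within-library ratios, spread percentiles and counts of genes high in 1 library were also added after seeing the data. Alternatives covered pseudocount, filter, scaling, gene value, variance model, replicate block and each library left out. Protein families, protein motifs and promoter motifs were planned and not analysed here, as no sequences were used.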

Additional observations from a re-analysis of the deposited data

How the results depend on the processing

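Across 17 alternatives, 0 of the 4 genes passed in limma in each (adjusted p 0.675 to 0.9998 for DHN), and across 14 alternatives 0 of their transcripts did. DHN stayed lower (-0.24 to -0.41) and HSP90 higher (0.04 to 0.27). Some alternatives left the differences of the 4 genes almost as in the main fit and add little as checks. These were the smaller pseudocount, annotated transcripts only and the deposited gene values. With 1 library left out LEA5 ranged from -0.35 to 0.15 and TIL from -0.41 to 0.28, and both turned only without replicate 1 of the yeast-only group. Replicate numbers were not taken as pairs, since the labels do not say that equal numbers belong together. The correlations of their deviations were 0.11, 0.19 and -0.01 within the 3 numbers and -0.25 to 0.14 between different numbers. With so few libraries these values do not decide whether numbers pair. With the replicate block the DHN difference was -0.33 (adjusted p = 0.767 in limma) and 0 of the 4 genes passed. Scaling moved the median of all genes to between -0.01 and 0.05.

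Of 78 alternative correlations, 24 kept the sign and lost the threshold and 4 turned. All 24 were of the pairs that had passed, LEA5 with TIL, LEA5 with HSP90 and TIL with HSP90. The pairs with DHN, also among the 78, had not passed and so could not lose the threshold. The smaller pseudocount, annotated transcripts only and the deposited gene values, also among the 78, nearly repeated the main r values. With rescaling to an equal FPKM sum, r was 0.94 for LEA5 and TIL, -0.69 for LEA5 and HSP90 and -0.73 for TIL and HSP90. Within groups these were 0.96, -0.82 and -0.87. Without the 2 libraries farthest from the median they were 0.96, -0.52 and -0.63, and those of DHN with LEA5 and TIL turned to -0.19 and -0.22. With 1 library left out, an alternative added after seeing the data, r ranged from 0.85 to 0.98 for LEA5 and TIL, -0.96 to -0.70 for LEA5 and HSP90, -0.90 to -0.66 for TIL and HSP90, -0.07 to 0.80 for DHN and LEA5, and -0.09 to 0.86 for DHN and TIL. For the last 2 pairs the negative values, -0.0738 and -0.0942, came without replicate 1 of the yeast-only group. With 5 or 4 libraries there are 120 or 24 pairings, so the smallest p is larger. The causes of the other shifts were not tested. The planned protein family counts gave no value here, since protein sequences were not analysed.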

Other observations

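Neighbouring genes were read from the files as a description. Among the 8 genes with a LOC identifier nearest on either side of DHN, LEA5, TIL and HSP90, the 2 of highest mean FPKM were LOC102628823, which lies 1559 bases from TIL, and LOC102613852, which lies 1808 bases from HSP90. LOC102628823 had 183, 147 and 155 FPKM in SA libraries 1 to 3 and 188, 148 and 179 FPKM in yeast-only libraries 1 to 3. LOC102613852 had 84.0, 81.3 and 80.9 FPKM in SA libraries 1 to 3 and 93.8, 78.7 and 94.4 FPKM in yeast-only libraries 1 to 3. LEA5, at up to 6521 FPKM, has neighbours with means of 2.31 and 0.468 FPKM, and those of DHN averaged 0.0446 and 5.99 FPKM.

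In the deposited gene table HSP90 stood above LEA5 in 5 of the 6 libraries, all but replicate 1 of the yeast-only group, while by FPKM LEA5 was the higher in each. In it HSP90 had 1444, 1736 and 1703 in SA libraries 1 to 3 and 1284, 1769.8 and 1414 in yeast-only libraries 1 to 3. LEA5 had 1319, 1125 and 1124 in SA libraries 1 to 3 and 2009.9, 999 and 1137 in yeast-only libraries 1 to 3. The deposited value over the summed FPKM was the same in every library, at 3.16 for HSP90, 1.60 for DHN and 0.899 for TIL. For LEA5 it was 0.309 of the annotated transcript alone in every library, while against the total it varied by 0.266%, so MSTRG.17231.1 is not in that value. The order of HSP90 and LEA5 in the deposited values thus follows from a constant per gene and is not a separate measurement. The origin of these constants was not tested.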
